A study of Rattus norvegicus with 23 samples.

Results

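Classical cadherins were followed across the area postrema of 5 groups of male rats. The members were E-cadherin (Cdh1), N-cadherin (Cdh2), R-cadherin (Cdh4), K-cadherin (Cdh6), Cdh8, Cdh10 and osteoblast cadherin (Cdh11). Every probe set whose only gene symbol was one of these 7 was taken, which gave 6 of 14218 genes with a single symbol and 11 of 31099 probe sets. The 6 genes had 3 probe sets for Cdh2, 3 for Cdh11, 2 for Cdh1 and 1 each for Cdh6, Cdh8 and Cdh10. Cdh4 was not analysed here. The family was chosen by its measured signals in these 5 groups, so the cadherin values are given as a description, without a test. Genes that work with the cadherins were listed by their known function, though with earlier results of these data known, and those were tested.

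The area postrema is a medullary organ outside the blood-brain barrier that senses blood-borne signals. RNA was measured on Affymetrix expression arrays for the rat genome, and each of the 23 arrays held RNA pooled from 5 rats, so the spread between single animals is not visible. The spontaneously hypertensive rat (SHR) was set against the Wistar Kyoto rat (WKY), a normotensive strain of related origin, with 5 arrays each from rats aged 10 to 13 weeks. Sprague Dawley rats aged 10 to 12 weeks had 4 arrays after 72 h of dehydration, 5 arrays after 48 h of fasting and 4 control arrays. No group carried an engineered allele. The labels do not say whether the pools of a group were dissected on separate days. The SHR and WKY arrays carry another label text than the Sprague Dawley arrays, so strain and experiment cannot be told apart where both sets are placed side by side.

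Classical cadherins are single-pass membrane proteins that bind a cadherin on the neighbouring cell in the presence of calcium. Inside the cell their tails bind beta-catenin and p120-catenin, and alpha-catenin links this complex to actin, which forms the adherens junction. E-cadherin is best known from epithelia, and in the nervous system it has been described in choroid plexus, meninges and some sensory neurons. N-cadherin is the main cadherin of neural tissue, whereas Cdh6, Cdh8, Cdh10 and Cdh11 are type II cadherins that mark sets of neurons. Cdh11 is also abundant in fibroblasts and meningeal cells.

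Signals are the deposited linear values, in which every array had the same trimmed mean, and array medians ran from 39.81 to 44.48. Differences are in log2(signal + 16), with the standard error from a limma fit over 18625 probe sets, and a fold computed on this scale understates the ratio of dim probe sets. A probe set entered a fit when its mean reached the 40th percentile, which corresponds to a signal of 29.0 in the fit of the 10 strain arrays and of 27.4 in the fit of the 13 Sprague Dawley arrays. Of the 11 cadherin probe sets, 7 entered the strain fit and 8 the Sprague Dawley fit. The probe sets 1386446_at of Cdh1, 1378271_at of Cdh2 and 1393549_at of Cdh8 entered neither fit, and 1386947_at of Cdh1 entered only the Sprague Dawley fit. Of 12 marker genes of area postrema neurons, 9 had a probe set. All 9 lay above the filter, among them Calcr, Ramp3, Casr, Dbh and Cartpt, and the dimmest, Glp1r, averaged 31.2 to 36.4 by group. All 12 general neuron markers also lay above the filter, which most probe sets pass, so this does not identify the tissue.

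Cdh1 had a higher signal in both dehydrated and fasted rats than in control rats. Its brighter probe set, 1386947_at, read 93.2, 85.4, 86.0 and 85.5 in the dehydrated arrays. In the fasted arrays it read 102.0, 102.7, 86.2, 92.6 and 92.3, and in the control arrays 52.3, 43.1, 48.4 and 51.7. Every dehydrated and every fasted array lay above every control array, while the dehydrated and fasted arrays overlapped each other. The means were 87.5 ± 3.8 in dehydrated rats (SD, n = 4), 95.2 ± 7.0 in fasted rats (n = 5) and 48.9 ± 4.2 in control rats (n = 4).

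The log2 difference of Cdh1 was 0.68 for dehydrated minus control (SE 0.098), a fold of 1.60. For fasted minus control it was 0.78 (SE 0.093), a fold of 1.71. Both differences use the same 4 control arrays, so they are not 2 separate observations. Dehydrated minus fasted gave -0.10 (SE 0.093), which is about the size of its standard error. In a tissue sample, more cells that carry a transcript and more transcript per cell cannot be told apart.

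**Figure D1:**
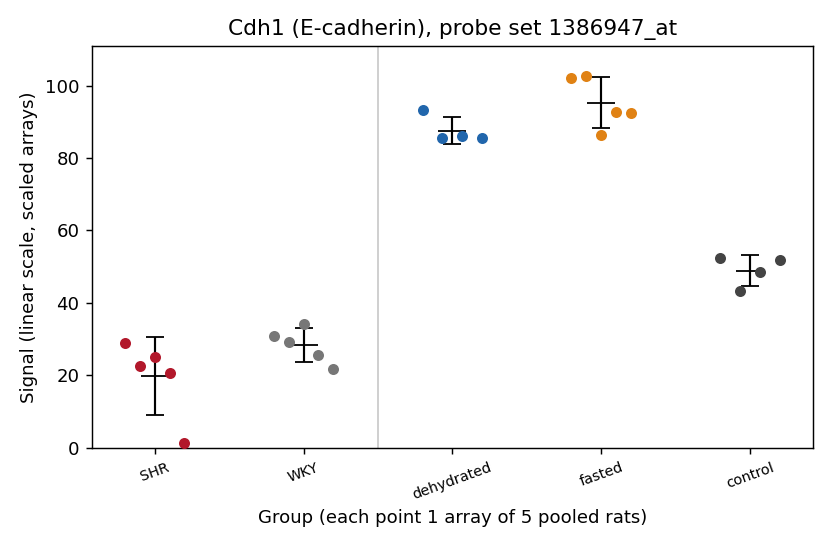
Signal of Cdh1 probe set 1386947_at on a linear scale for each array (points), with the group mean and SD (black), the strain arrays left of the grey line and the Sprague Dawley arrays right of it. The 9 dehydrated and fasted arrays sit between 85.4 and 102.7, the 4 control arrays between 43.1 and 52.3, and all 10 strain arrays at or below 34.1.

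Across the whole table, 31 of 18625 probe sets passed an adjusted p of 0.05 for dehydrated minus control, a background of 0.166%. For fasted minus control 4 passed, a background of 0.0215%, and for dehydrated minus fasted 6 passed, a background of 0.0322%. Cdh1 1386947_at was among the probe sets passing in the comparisons of dehydrated and of fasted rats with control rats, and the cadherins were picked with that known, so these backgrounds carry no inference about them. The arrays of the groups did not overlap, in either direction, for 6.68% of probe sets in dehydrated against control rats and for 2.32% in fasted against control rats. Among the cadherins this held for Cdh1 1386947_at alone in each of these comparisons. It held for 0 cadherin probe sets between SHR and WKY and between dehydrated and fasted rats, where the share of all probe sets was 6.33% and 3.23%.

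Both Cdh1 differences kept their size when each of the 13 Sprague Dawley arrays was left out in turn, at 0.63 to 0.70 for dehydrated and 0.73 to 0.81 for fasted minus control. With only control arrays 3 and 4, which share the fuller label protocol text of the treated arrays, the differences were 0.65 and 0.75. Neither was among the probe sets passing with these control arrays or with all 23 arrays in 1 model.

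The SHR and WKY arrays had the lowest Cdh1 signals of the series. In SHR the probe set 1386947_at read 28.9, 22.6, 25.1, 20.8 and 1.25, and in WKY it read 30.8, 29.3, 34.1, 25.7 and 21.7. The SHR mean was 19.7 ± 10.8 and the WKY mean 28.3 ± 4.8 (SD, n = 5 each), with overlapping arrays. The log2 difference of SHR minus WKY was -0.38, but the probe set lay below the filter in these arrays. Without SHR array 5, at 1.25, the SHR mean was 24.3 ± 3.5 (n = 4) and the log2 difference -0.13. All 10 strain arrays lay below all 13 Sprague Dawley arrays. In the order of the 5 means, fasted and dehydrated rats overlapped, control rats stood apart from both neighbours, and WKY and SHR overlapped.

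The second Cdh1 probe set, 1386446_at, had no signal of use in any group. Its 23 values ran from 0.12 to 6.52, with means of 2.76 in SHR, 1.63 in WKY, 2.27 in dehydrated, 0.832 in fasted and 0.685 in control rats. The Cdh1 result therefore rests on 1 probe set.

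Markers of other cell types were read on the same arrays, since E-cadherin could enter a dissection with choroid plexus, meninges or epithelium. Choroid plexus lies beside the area postrema, and its markers, of which 12 of 14 were measured, varied widely between pools of 1 group. Their summed signal was 5436, 7395, 12810 and 1927 in the dehydrated arrays, 2178, 2207, 1731, 11958 and 1864 in the fasted arrays and 2137, 2763, 10624 and 2315 in the control arrays. The Pearson r of the Cdh1 signal with these sums was -0.00 over the 13 arrays, which share a scale and the group steps. Over all the marker lists this r ran from -0.42 for meninges and fibroblasts to 0.51 for neurons, with 0.27 for epithelium. With the log2 choroid plexus sum as a covariate, an alternative added after seeing the data, the Cdh1 differences were 0.68 for dehydrated and 0.78 for fasted minus control. The part of choroid plexus tissue in these differences was not tested further.

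Epithelial markers were mostly dim. Of the 15 listed, 14 were measured and 9 lay below the filter, among them the epithelial adhesion gene Epcam. Epcam averaged 13.6 in dehydrated, 12.3 in fasted and 9.67 in control rats. Of the 5 markers in the fit, 4 were lower in dehydrated than in control rats, with a median log2 difference of -0.16. In fasted rats 4 of the 5 were higher than in control rats, with a median of 0.14, and 0 passed in either comparison. The summed epithelial signal was 285 to 352 in dehydrated arrays, 344 to 379 in fasted arrays and 307 to 338 in control arrays. Over these 14 markers it was thus higher in every fasted than in every control array, and it overlapped between dehydrated and control arrays. The sums over the 5 markers in the fit were 167 to 198 in dehydrated, 223 to 239 in fasted and 198 to 224 in control arrays. In these sums both treated groups overlapped with the control arrays. The part of the epithelial signal in the fasting difference was not tested.

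Meningeal and fibroblast markers, with 16 of 17 measured, summed to 6508 to 8863 in dehydrated, 7094 to 9234 in fasted and 7643 to 12053 in control arrays. These ranges overlapped, with the highest sum in a control array. Neuron markers, with all 12 measured, summed to 9750 to 10512 in dehydrated, 9119 to 10141 in fasted and 8989 to 9300 in control arrays. They were higher in every dehydrated than in every control array and overlapped between fasted and control arrays. Area postrema neuron markers summed to 3249 to 4208 in dehydrated, 3601 to 4657 in fasted and 4085 to 4608 in control arrays. These ranges overlapped, and the Pearson r of this sum with Cdh1 was -0.39. With the general neuron sum as a covariate the Cdh1 difference was 0.64 for dehydrated minus control, where the probe set was not among those passing. For fasted minus control it was 0.77. The part of neuron content was not tested further. RNA integrity was read from the Gapdh control probe sets, as the log2 signal at the 3' end over that at the 5' end. This ratio averaged 0.41 in dehydrated, 0.22 in fasted and 0.34 in control rats, and with it as a covariate the Cdh1 differences were 0.69 and 0.75.

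**Figure D2:**
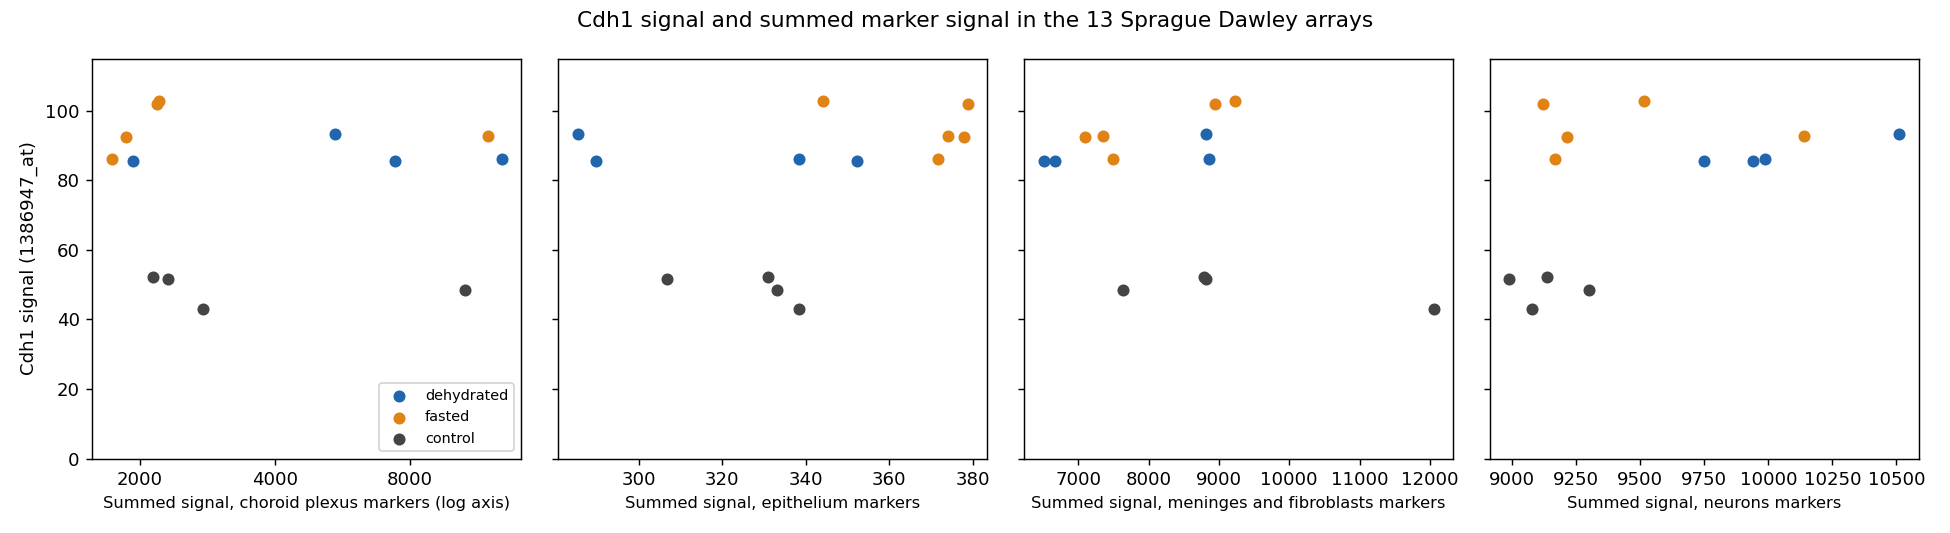
Signal of Cdh1 1386947_at (vertical axis) against the summed signal of choroid plexus (log axis), epithelium, meninges and fibroblast, and neuron markers in the 13 Sprague Dawley arrays, 1 point per array. Control arrays lie between 43.1 and 52.3 and the dehydrated and fasted arrays between 85.4 and 102.7, and the choroid plexus sums of each group span a wide range.

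N-cadherin showed small differences. Its brightest probe set, 1368642_at, read 426.7, 438.4, 397.2, 386.8 and 354.6 in SHR, against 397.9, 430.6, 443.0, 435.9 and 392.9 in WKY. In Sprague Dawley rats it read 382.7, 373.7, 392.1 and 347.2 when dehydrated, 341.2, 336.6, 424.8, 409.3 and 347.0 when fasted, and 372.4, 321.0, 306.3 and 337.7 in control rats. The groups overlapped in every comparison. The means were 401 ± 33 in SHR, 420 ± 23 in WKY, 374 ± 19 in dehydrated, 372 ± 42 in fasted and 334 ± 28 in control rats.

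The log2 differences of Cdh2 1368642_at were -0.07 for SHR minus WKY (SE 0.066), 0.16 for dehydrated minus control (SE 0.087) and 0.14 for fasted minus control (SE 0.082). The second Cdh2 probe set, 1387259_at, averaged 153 ± 18 in SHR and 174 ± 12 in WKY, a log2 difference of -0.18 (SE 0.082). It averaged 128 ± 8.2 in dehydrated, 146 ± 19 in fasted and 130 ± 10 in control rats, with a log2 difference of -0.02 for dehydrated and 0.15 for fasted minus control. The Cdh2 probe sets thus shared a sign for fasting and for strain and differed in sign for dehydration. The third, 1378271_at, was dim, with values from 2.68 to 36.6 that overlapped between all groups.

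Of the type II cadherins, Cdh11 gave a split answer. Its brightest probe set, 1388936_at, read 479.9, 594.8, 539.3 and 617.6 in dehydrated rats and 495.6, 545.5, 582.0, 566.6 and 480.2 in fasted rats, against 526.0, 429.3, 430.3 and 445.7 in control rats. Control array 1 stood above the other 3 control arrays and overlapped with both treated groups. The means were 558 ± 62 in dehydrated, 534 ± 44 in fasted and 458 ± 46 in control rats, and the log2 differences were 0.27 for dehydrated (SE 0.090) and 0.22 for fasted minus control (SE 0.085).

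Cdh11 1391146_at differed in the same direction, at 74.3 ± 5.6 in dehydrated, 68.1 ± 11.1 in fasted and 62.5 ± 9.5 in control rats, with log2 differences of 0.21 and 0.10. Cdh11 1391088_at ran the other way. It read 30.8, 31.9, 17.1 and 26.3 in dehydrated and 21.7, 23.2, 34.8, 24.7 and 20.8 in fasted rats, against 30.9, 32.9, 34.5 and 42.0 in control rats, with log2 differences of -0.28 (SE 0.149) and -0.32 (SE 0.142). The arrays overlapped in each of these comparisons, and none of the 3 probe sets passed. Which transcript each probe set reads was not settled here, and probe sequences were not used.

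In the strain arrays Cdh11 1388936_at read 388.9, 384.7, 333.3, 325.4 and 316.3 in SHR, against 386.9, 427.9, 364.8, 312.3 and 368.4 in WKY. The log2 difference of SHR minus WKY was -0.08 (SE 0.081). All 10 of these values lay below the lowest Sprague Dawley value of 429.3, the same placement as for Cdh1. The probe set 1391088_at was placed the other way, with means of 53.2 in SHR and 52.0 in WKY, against 26.5 in dehydrated, 25.0 in fasted and 35.1 in control rats.

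Cdh10 read 90.9, 102.0, 119.3, 116.4 and 126.8 in SHR, against 96.9, 77.0, 95.9, 110.2 and 98.8 in WKY. The means were 111 ± 14 and 95.8 ± 12.0 with overlapping arrays, and the log2 difference was 0.18 (SE 0.097). It averaged 92.2 ± 13.4 in dehydrated, 82.7 ± 9.9 in fasted and 78.7 ± 13.8 in control rats, with log2 differences of 0.20 (SE 0.121) and 0.07 (SE 0.115) against control. Both lie within about 2 standard errors.

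Cdh6 was at 53.7 ± 15.9 in SHR and 54.4 ± 6.4 in WKY, with a log2 difference of -0.04 (SE 0.139). It averaged 42.0 ± 5.4 in dehydrated, 42.3 ± 10.2 in fasted and 49.0 ± 10.7 in control rats, with log2 differences of -0.15 and -0.16. Cdh8 was dim in all groups, at 13.0 in SHR, 15.5 in WKY, 7.26 in dehydrated, 6.98 in fasted and 7.61 in control rats, and no SE is given because it entered no fit. For Cdh6, Cdh8 and Cdh10 all neighbours in the order of group means overlapped.

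**Figure D3:**
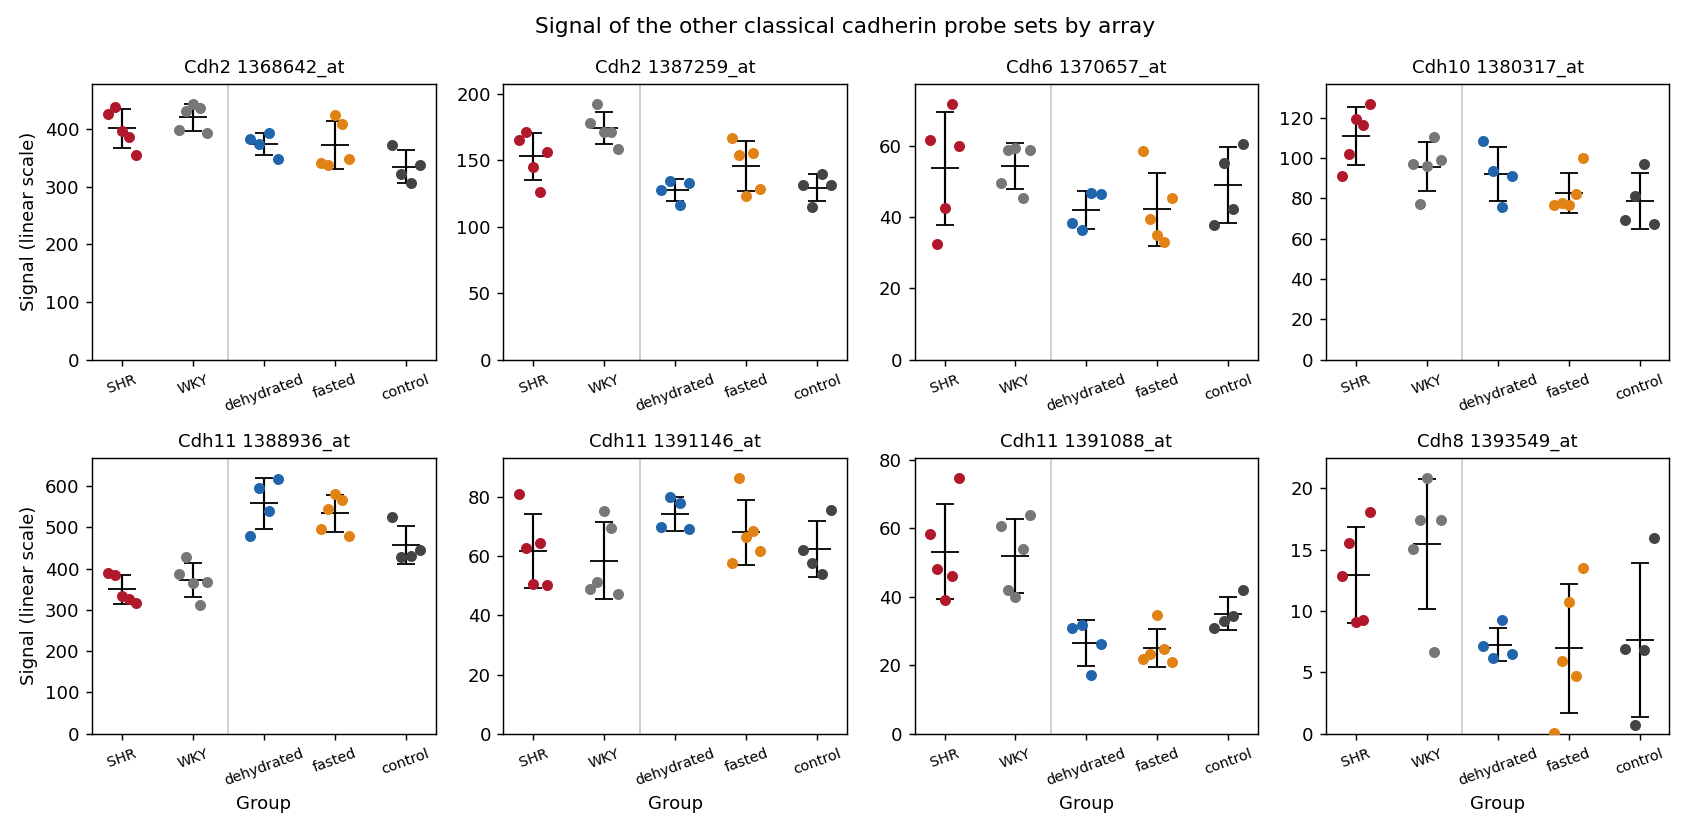
Signal of 8 further cadherin probe sets on a linear scale for each array (points), with group means and SD (black), the strain arrays left of the grey line. Control and treated arrays overlap in every panel, and Cdh11 1388936_at and 1391088_at are placed in opposite directions.

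As a description, with each probe set of Cdh2 and Cdh11 counted separately, the cadherin probe sets did not share 1 direction in any comparison. Of the 7 that entered the strain fit, 3 were higher and 4 lower in SHR than in WKY, with a median log2 difference of -0.04 against 0.01 over all probe sets. None of the 7 passed, where 942 of 18625 probe sets did, a background of 5.06%. For dehydrated minus control, 5 of 8 were higher and 3 lower with a median of 0.18, and for fasted minus control 6 were higher and 2 lower with a median of 0.12. The median over all probe sets was -0.01 and 0.00 in these comparisons. Of the 8, 1 passed in each, the Cdh1 probe set already known when the family was picked, so nothing is read from this count. For dehydrated minus fasted the 8 ran from -0.16 to 0.13 and 0 passed.

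**Figure D4:**
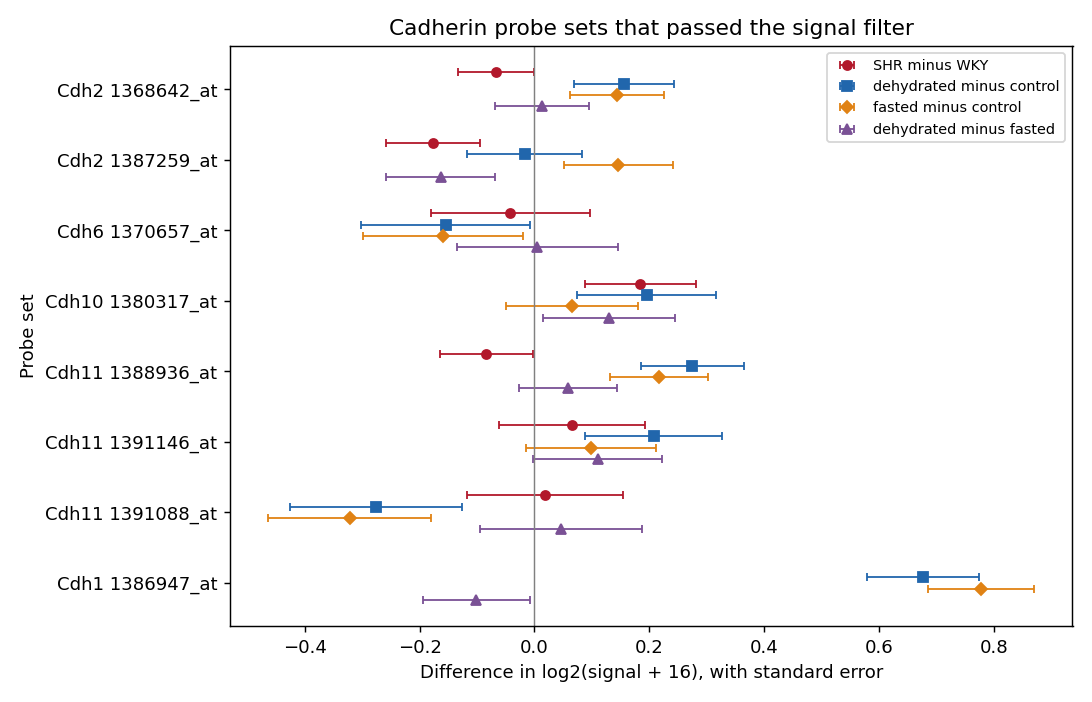
Difference in log2(signal + 16) with its standard error for the cadherin probe sets that entered a fit, 1 symbol per comparison. Cdh1 1386947_at stands at 0.68 and 0.78 against control, and the other probe sets lie between -0.32 and 0.27 in all comparisons.

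The genes that act with the cadherins were tested as 6 lists. In SHR against WKY, 3 of 89 measured genes passed (3.37%), 1 higher and 2 lower, beside 5.15% of all 10476 genes read by their brightest probe set. At an unadjusted limma p below 0.05 there were 15 (16.9%, beside 18.2%). Ptprf, the receptor phosphatase LAR that is found at cell junctions, fell to 286 ± 17 in SHR, against 388 ± 20 in WKY, a log2 difference of -0.42 (SE 0.062, limma adjusted p = 0.000324). Cldn2, a pore-forming claudin that also marks choroid plexus, fell to 26.8 ± 5.4 in SHR, against 47.5 ± 6.0 in WKY, a log2 difference of -0.57 (SE 0.110, limma adjusted p = 0.00355). Dsp, the desmosomal plaque protein desmoplakin, rose to 47.9 ± 4.2 in SHR, against 33.0 ± 7.3 in WKY, a log2 difference of 0.39 (SE 0.109, limma adjusted p = 0.0454).

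The Dsp result was close to the threshold and was lost without any 1 of 8 of the 10 arrays, with adjusted p from 0.0593 to 0.116, as given in the closing part. The SHR and WKY arrays of Ptprf, Cldn2 and Dsp did not overlap, which held for 6.33% of all probe sets. These genes were named for passing on the same arrays, so the lack of overlap adds no support. Of the 8 choroid plexus markers that entered the strain fit, Cldn2 itself among them, 7 were lower in SHR, with a median log2 difference of -0.20. Of these 8, Cldn2 was the 1 that fell and Enpp2 the 1 that rose. The sum over all 12 measured markers was 1531 to 1695 in SHR arrays and 1165 to 1357 in WKY arrays. Enpp2, a marker that other cells also express, made up much of that sum, with 1113 in SHR and 660 in WKY. Meningeal markers summed to 4789 to 5604 in SHR and 5698 to 8739 in WKY. Of the 11 meningeal markers in the fit all were lower in SHR, and Col1a2, Igf2 and Fmod fell. Area postrema neuron markers summed to 3303 to 3842 in SHR and 2847 to 3244 in WKY, without overlap, and of 9 in the fit Cartpt rose. Cartpt made up much of that sum, with 2033 in SHR and 1448 in WKY. Of the 9, 7 were higher and 2 lower in SHR, with a median log2 difference of 0.09. Microglia and macrophage markers summed to 1681 to 2289 in SHR and 2279 to 2584 in WKY. Of 11 in the fit 10 were lower in SHR, and Aif1, C1qa and C1qc fell. Sums of general neuron, astrocyte, oligodendrocyte and vascular markers overlapped between the strains, and among these lists Gad2 rose. Epithelial markers summed to 338 to 377 in SHR and 346 to 416 in WKY. Of the 5 epithelial markers in the fit all were lower in SHR, with a median log2 difference of -0.13, and 0 passed. The sums over these 5, 189 to 233 in SHR and 243 to 264 in WKY, did not overlap. The share of markers in the fit that passed was 27.3% for meninges, 27.3% for microglia and macrophages and 25.0% for choroid plexus. It was 11.1% for area postrema neurons and 8.33% for general neurons, beside 5.15% of all 10476 genes. The part of any of these cell types in the Ptprf, Cldn2 and Dsp differences was not tested.

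By list, 0 of 9 catenins, 1 of 24 adherens junction partners, 0 of 16 genes of cadherin turnover, 0 of 10 transcriptional regulators, 0 of 21 other cadherins and 2 of 9 desmosome and tight junction genes passed between strains. Beta-catenin (Ctnnb1), which binds the cadherin tail, gave 2639 ± 212 in SHR against 2679 ± 218 in WKY, a log2 difference of -0.02 (limma adjusted p = 0.912). Plakoglobin (Jup), which can take the place of beta-catenin, had 101 ± 18 in SHR and 121 ± 12 in WKY, a log2 difference of -0.23 (limma adjusted p = 0.246). These catenins and the genes of the next paragraphs fall outside the naming rule and were picked with their values in view.

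In dehydrated against control rats, 0 of 88 partner genes passed, while 18 had an unadjusted limma p below 0.05 (20.5%, beside 12.2% of all genes). The background of genes passing was 0.25% of 10408. The differences ran from -0.37 to 0.33 with a median of 0.00. In fasted against control rats 0 of 88 passed, with 8 below an unadjusted p of 0.05 (9.09%, beside 7.71%). In dehydrated against fasted rats 0 of 88 passed, with 10 below it (11.4%, beside 10.3%). The background of genes passing was 0.0288% in both, that is 3 genes. No partner gene reached the size of the Cdh1 difference in either comparison with control rats, the nearest being 0.41 for Src, a kinase that acts on junction proteins, for fasted minus control. Cdh1 was picked with its size known, above 99.94% of all tested probe sets for dehydrated and 99.98% for fasted minus control. Nothing is therefore read from this placing.

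No catenin passed in the comparisons with control rats. Ctnnb1 had 3432 ± 200 in dehydrated, 3207 ± 193 in fasted and 3261 ± 182 in control rats, with log2 differences of 0.07 and -0.02 against control. Alpha-N-catenin (Ctnna2), the neural alpha-catenin, had 186 ± 5.8 in dehydrated, 170 ± 13 in fasted and 145 ± 16 in control rats. Its log2 difference of 0.33 for dehydrated minus control did not pass (limma adjusted p = 0.155) although the arrays did not overlap, and that of 0.21 for fasted minus control did not pass either (limma adjusted p = 0.625). Ctnna1, the alpha-catenin of most tissues, differed by -0.11 and -0.07, and the p120-catenin gene Ctnnd1 by -0.06 and 0.03.

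Repressors of E-cadherin transcription, known from epithelial cells, also gave no passing difference. Zeb1 had log2 differences of -0.05 for dehydrated and 0.16 for fasted minus control, and Snai1 of 0.01 and 0.03. Zeb2 had 160 ± 15 in dehydrated, 152 ± 34 in fasted and 124 ± 10 in control rats, log2 differences of 0.33 and 0.24 (limma adjusted p = 0.337 and 0.7). Twist1 had 44.1 ± 10.2 in dehydrated, 43.2 ± 7.3 in fasted and 61.0 ± 17.3 in control rats, log2 differences of -0.35 and -0.36 (limma adjusted p = 0.397 and 0.63). The sheddase gene Adam10, whose product cleaves E- and N-cadherin, differed by 0.00 and 0.23.

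Among the other cadherins, the brain protocadherins Pcdh17 and Pcdh9 differed by 0.32 and 0.33 for dehydrated minus control (limma adjusted p = 0.14 and 0.165). For fasted minus control they differed by 0.22 and 0.24 (limma adjusted p = 0.544 and 0.557). Cdh22, a brain cadherin, had 1225 ± 181 in dehydrated and 893 ± 133 in fasted rats, a log2 difference of 0.45 (limma adjusted p = 0.233). Cdh13 (T-cadherin), which is held to the membrane by a lipid anchor and lacks the catenin-binding tail, averaged 180 in SHR, 191 in WKY, 187 in dehydrated, 217 in fasted and 191 in control rats at probe set 1373102_at. None of its 3 probe sets passed in any comparison, with limma adjusted p between 0.41 and 0.999.

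**Figure D5:**
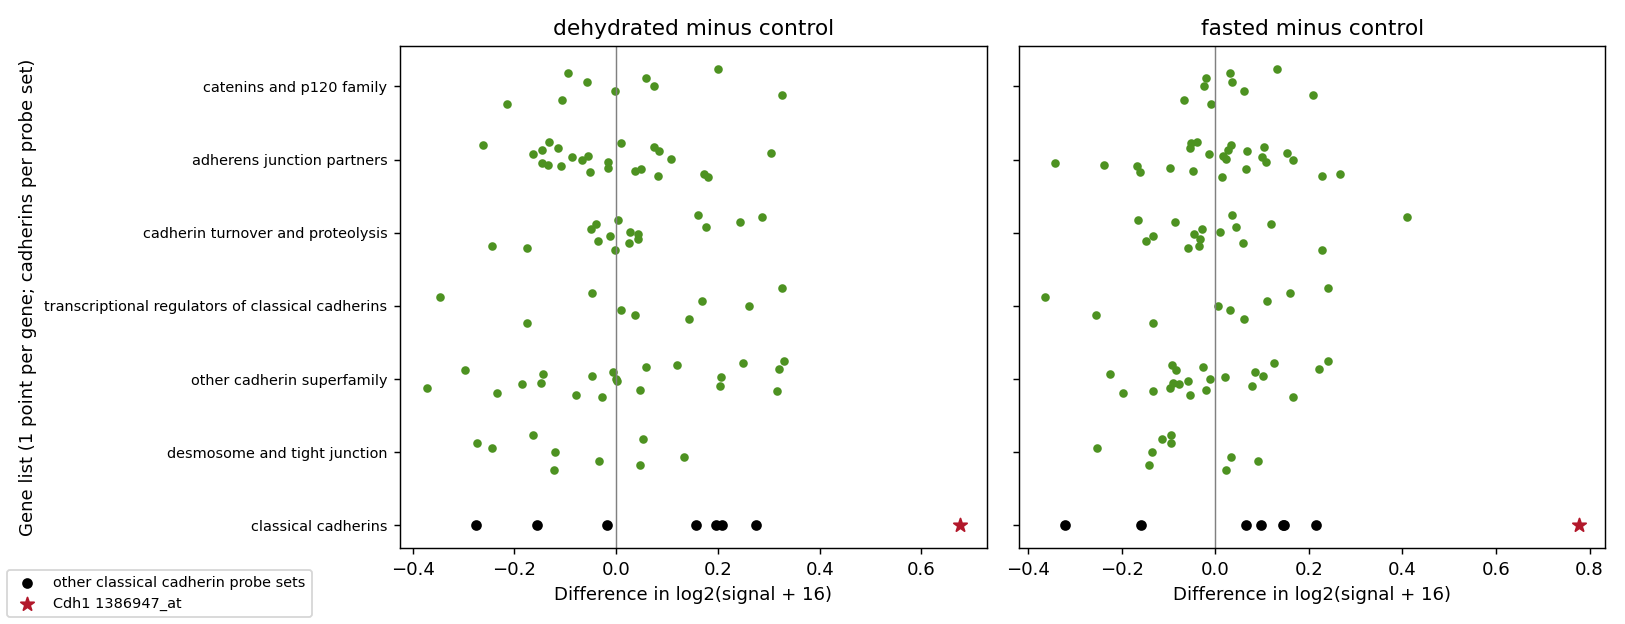
Difference in log2(signal + 16) against control rats, in dehydrated (left) and fasted rats (right), for the measured genes of the 6 partner lists (green, 1 point per gene) and for the cadherin probe sets (black, with Cdh1 as a red star). All partner genes lie between -0.37 and 0.41, and Cdh1, picked with its values known, stands at 0.68 and 0.78.

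The genes whose pattern was most like that of Cdh1 1386947_at depended on which arrays were read. Over the 13 Sprague Dawley arrays the 5 highest Pearson correlations were with Gapvd1 (0.86), Ube2q2 (0.86), Cpne6 (0.83), Zfand2a (0.83) and Gramd4 (0.82). Zfand2a, for example, had 110 in dehydrated, 106 in fasted and 76.6 in control rats. Over all 23 arrays they were with Trpm3 (0.93), Fam124a (0.93), Lrpap1 (0.92), Pdha1 (0.91) and Abca2 (0.91), where the arrays also share the step between the strain and the Sprague Dawley sets. Trpm3 had 151 in SHR, 172 in WKY, 244 in dehydrated, 231 in fasted and 196 in control rats.

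For the other members the closest gene over 23 arrays was Ash1l for Cdh2 (0.86), Psme2 for Cdh6 (0.77), Susd4 for Cdh8 (0.82), Pcp4 for Cdh10 (0.83) and Ptprs for Cdh11 (0.93). Pcp4 had 1071 in SHR and 712 in WKY, the strain order of Cdh10. Among the cadherins, Cdh1 1386947_at and Cdh11 1388936_at had a Pearson r of 0.88 over 23 arrays and 0.62 over the 13 Sprague Dawley arrays. The other Cdh11 probe sets differed in sign. In the same order, Cdh1 had an r of 0.51 and 0.43 with 1391146_at, and of -0.88 and -0.65 with 1391088_at. These correlations describe arrays that share a scale, a tissue and the group steps.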

How the data were processed

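RNA of 23 arrays was analysed, grouped by the sample titles. The authors deposited 1 intensity per probe set and array, unlogged, from GCOS 1.2, per the submitters' processing notes, with settings not given in the sources used here. They were used as deposited, since the mean after removing 2% at each end was 100.03 in every array. The depth of an array is not defined, and the number of arrays limits the precision.

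Of 31099 probe sets, 57 are Affymetrix controls. Of all probe sets, 20832 have 1 symbol and 436 several, with some controls among them, and 9780 that are not controls have none. Symbols were checked against RefSeq genes of GRCr8, with 0 updates. Array pairs correlated at 0.964 to 0.985, and 0 pairs were identical.

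Signals were taken as log2(signal + 16), and controls and probe sets below the 40th percentile of the mean were left out. Two-sided limma tests (limma 3.58.1 under R 4.3.3, with eBayes set to trend and robust) used Benjamini-Hochberg adjustment over 18625 probe sets at 0.05. SHR and WKY were fitted on 10 arrays, and the Sprague Dawley groups on 13 in 1 model. A gene was read by its brightest probe set. Because each array is a pool and nothing says that the pools are otherwise independent, the p-values measure only the spread between these samples, which may in part be technical. Summaries and plots were made in Python 3.11.15, with pandas 2.3.3 and matplotlib 3.10.9.

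The members and lists were chosen with earlier results of these data known. All cadherin probe sets are named. From each list and comparison up to 5 passing genes with the smallest p are named, then the 5 genes most like Cdh1 by Pearson r over the Sprague Dawley arrays and over all 23, the 1 most like each other member, and Cdh13. Other names were picked with values in view.

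Each result was repeated with other pseudocounts (1 and 64), quantile-normalized signals, no filter, plain eBayes, all 23 arrays in 1 model, the 2 groups of a comparison alone, control arrays 3 and 4 alone, the Gapdh ratio as a covariate, the replicate number as a block, and every array left out once. Choroid plexus and neuron marker sums as covariates were chosen after seeing the data. The fit was tested on simulated data.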

Additional observations from a re-analysis of the deposited data

Results flagged for a closer look

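In 5 of 55 groups of 4 or 5 arrays, 1 array lay far from the others of its group by Dixon's test at the 95% level, which flags about 1 group in 20 by chance. For Cdh1 1386947_at, dehydrated array 1 read 93.2, against 85.4 to 86.0 in the other 3 dehydrated arrays. It is the highest of its group and lies on the side away from the control arrays. For Cdh11 1388936_at, control array 1 read 526, against 429 to 446 in the other 3, and it is this array that overlaps with the dehydrated and fasted arrays. For Cdh11 1391088_at, fasted array 3 read 34.8, against 20.8 to 24.7 in the other 4 fasted arrays. For Cdh10, fasted array 5 read 99.99, against 76.7 to 81.9 in the other 4. For Cdh2 1378271_at, a dim probe set, fasted array 5 read 3.83, against 21.0 to 27.3 in the other 4.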

How the results depend on the processing

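The Cdh1 differences from control rats kept their sign under every alternative run, at 0.43 to 0.83 for dehydrated and 0.50 to 0.95 for fasted rats. The ends of both ranges came from the pseudocount, with 0.83 and 0.95 at a pseudocount of 1 and 0.43 and 0.50 at 64. The counts of probe sets passing moved more. For dehydrated minus control, 31 probe sets passed, against 74 with all 23 arrays in 1 model, 18 with the choroid plexus sum as a covariate, 2 with control arrays 3 and 4 only, 10 with eBayes without trend and robust, 1 with the neuron sum as a covariate and 15 without a filter. Leaving out 1 array gave 9 to 56. The count was 15 without control array 1, 12 without control array 2, 9 without control array 4, 9 without dehydrated array 1, 12 without dehydrated array 2 and 56 without fasted array 4. For fasted minus control, 4 passed, against 0 with control arrays 3 and 4 only, and 2 each with plain eBayes, the neuron sum and no filter. Leaving out 1 array gave 2 to 6, with 2 each without control array 2, fasted array 3 and fasted array 4. For dehydrated minus fasted, 6 passed, against 2 with the Gapdh ratio and 3 with plain eBayes, and 2 to 10 when 1 array was left out, the ends being dehydrated array 1 and fasted array 1. The cause of these shifts was not tested. For SHR minus WKY leaving out 1 array gave 741 to 1012, and 2 to 4 partner genes.

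The replicate number as a block gave 15 probe sets for dehydrated minus control and 1 for dehydrated minus fasted, and the Cdh1 differences were 0.68 and 0.79. Arrays with the same number correlated at -0.00 to 0.28 between the strains, with 2 of 5 pairs above 0.1, and at -0.17 to 0.06 in the other comparisons, so the numbers were not taken as pairs. Dsp did not pass between strains with the Gapdh ratio (adjusted p = 0.0641), without a filter (0.0734) or without SHR array 1, 2, 3, 4 or 5 or WKY array 3, 4 or 5. Cldn2 did not pass with all 23 arrays (adjusted p = 0.0686). Of the 5 genes most like Cdh1, 1 was shared with Spearman's rho over the Sprague Dawley arrays. Over all 23 arrays 2 were shared with Spearman's rho and 2 with the mean of both Cdh1 probe sets. Dim probe sets, signals under about 29, limit what can be said of Cdh8, of the second Cdh1 probe set and of Cdh1 between strains.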
